A study of Mus musculus with 7 samples.

Results

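The genes that make and break down heme were examined in the liver of mice given lipopolysaccharide (LPS), a component of the bacterial outer membrane. The set comprised 9 genes chosen by their place in the pathway: 6 of synthesis (Alas1, Alad, Urod, Cpox, Ppox and Fech) and 3 of breakdown (Hmox1, Blvra and Blvrb), found by gene symbol among 56691 genes in the count table. RNA sequencing of whole liver was available from 4 control mice and 3 LPS-treated mice, out of the 6 that the study kept per group. All were male C57BL/6J mice, an inbred laboratory strain, 8 weeks old when purchased and housed for 2 weeks before the experiment. LPS-treated mice received LPS intraperitoneally at 10 mg/kg and were killed 24 h later; the labels describe no injection for control mice, and the mice given sulforaphane were not analysed here. The libraries were stranded and selected for poly(A) RNA, were sequenced on an MGISEQ2000 instrument, and each came from a different mouse by the labels. Reads counted on genes totalled from 14991022 (control 1) to 20500391 (LPS 1) per mouse.

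Heme is an iron-holding porphyrin. Its synthesis starts in the mitochondrion with aminolevulinate synthase (Alas1 in most tissues, Alas2 in erythroid cells), passes through the cytosol by way of aminolevulinate dehydratase (Alad) and uroporphyrinogen decarboxylase (Urod), and returns to the mitochondrion for coproporphyrinogen oxidase (Cpox), protoporphyrinogen oxidase (Ppox) and ferrochelatase (Fech), which inserts the iron. Heme oxygenase opens the ring to biliverdin, carbon monoxide and iron, and biliverdin reductases turn biliverdin into bilirubin, which hepatocytes conjugate and excrete into bile. Liver makes much of its heme for cytochrome P450 enzymes, Alas1 is the rate-limiting step and is repressed by heme, and Hmox1 is the inducible heme oxygenase beside the constitutive Hmox2.

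Along the pathway the genes moved in different directions. All 9 genes had enough counts to be tested among 13683 genes, and 2 were higher (Hmox1 and Cpox) and 4 lower (Alad, Urod, Fech and Blvrb) in LPS-treated mice at an adjusted p below 0.05 (edgeR's quasi-likelihood test, Benjamini-Hochberg over all genes tested), while Alas1, Ppox and Blvra did not pass. Over all genes tested, 13.4% were higher and 12.8% lower by the same rule. Of all calls 51.1% were higher; with total counts alone, without scaling factors, 39.7% were, and the median log2 fold change of all genes moved by -0.12. In 3 of the 9 genes all LPS-treated mice exceeded all control mice (18.1% of all genes tested did so), and in 4 they were all below (17.4%). The median log2 fold change, the log2 of LPS over control, was -0.54 over the 6 synthesis genes, -0.14 over the 3 breakdown genes and -0.01 over all genes tested. In whole liver, fewer cells of a type and less RNA per cell cannot be told apart, which holds for each difference given here.

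**Figure D1:**
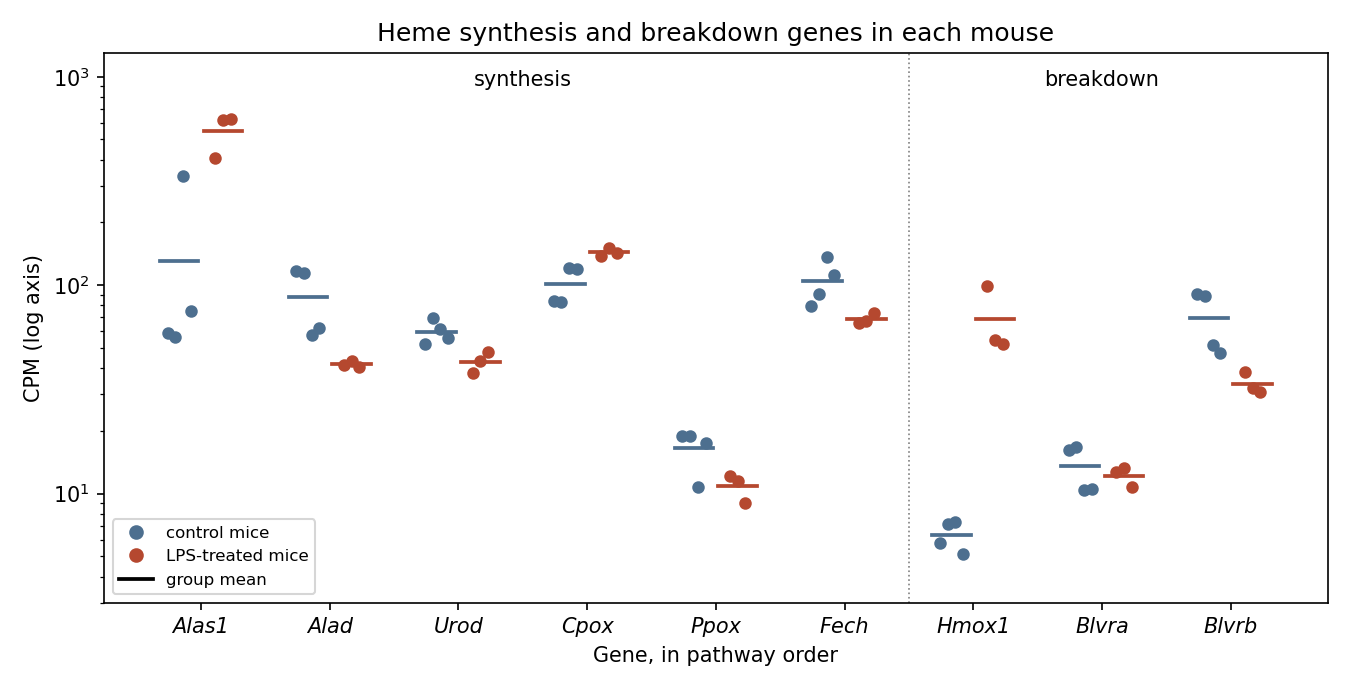
Normalised expression (counts-per-million of the scaled library, CPM, log axis) of the 6 synthesis and 3 breakdown genes in pathway order, with a point per mouse (blue, 4 control mice; red, 3 LPS-treated mice) and a line at each group mean. Hmox1 lies between 5.13 and 7.27 CPM in control mice and from 52.4 to 99.5 CPM in LPS-treated mice, and the Alas1 point of control 3 lies at 333 CPM, apart from the other control mice.

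Alas1 (ENSMUSG00000032786), the entry enzyme, had the widest spread. Its normalised expression, in counts-per-million (CPM) of a library size scaled by TMM factors, was 58.9, 56.4, 333 and 75.3 in control mice 1 to 4 and 408, 617 and 630 in LPS-treated mice 1 to 3. The lowest LPS-treated mouse was above the highest control mouse, but control 3 lay much nearer to LPS 1 than to the other control mice. The mean was 131 ± 135 CPM (SD, n = 4) in control mice and 552 ± 125 CPM (SD, n = 3) in LPS-treated mice, a 4.22-fold difference. The log2 fold change of 2.08 (SE 0.75) did not pass edgeR's test (adjusted p = 0.0990), and the two-sided exact permutation test over the 35 ways to label the 7 mice gave p = 0.0571, where 0.0286 is the smallest it can give. The call turned on control 3: without that mouse the log2 fold change was 3.11 with an adjusted p of 1.58e-07 in edgeR. It also passed with DESeq2 (adjusted p = 0.0259) and with the replicate number as a block (0.0489), and over all 17 alternatives the adjusted p ran from 1.58e-07 to 0.213.

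Alad (ENSMUSG00000028393), the cytosolic enzyme that follows, was lower after LPS. Its level was 117, 114, 58.0 and 62.5 CPM in control mice 1 to 4 and 41.3, 43.1 and 40.7 CPM in LPS-treated mice 1 to 3. The LPS-treated mice lay close together below all control mice, and control mice 1 and 2 were well above control mice 3 and 4. The log2 fold change was -1.08 (SE 0.24, adjusted p = 0.00595 with edgeR), and control mice had 2.11 times the mean CPM of LPS-treated mice. The exact permutation test gave p = 0.0571.

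Urod (ENSMUSG00000028684) was at 52.1, 69.9, 61.3 and 55.5 CPM in control mice and at 37.7, 43.2 and 48.0 CPM in LPS-treated mice. The groups did not overlap. In edgeR its log2 fold change was -0.47 (SE 0.15, adjusted p = 0.0334), and the exact permutation p was 0.0286. The gap was narrow, 48.0 against 52.1 CPM, and the call was lost when any LPS-treated mouse or control 2 was left out (log2 fold change -0.56 to -0.38, adjusted p 0.0171 to 0.131 over the 7 fits that each left out a mouse).

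Cpox (ENSMUSG00000022742) was the synthesis gene that passed the test as higher. Control mice had 83.7, 83.5, 121 and 120 CPM and LPS-treated mice had 138, 150 and 143 CPM. Control mice again fell into a lower pair (1 and 2) and a higher pair (3 and 4), the reverse order of Alad, and all LPS-treated mice were above both pairs. The log2 fold change was 0.50 (SE 0.17, adjusted p = 0.0405 with edgeR; exact permutation p = 0.0857). The call was lost without scaling factors (log2 fold change 0.37), without control 1 or control 2 and without any of the LPS-treated mice (0.40 to 0.59 over the leave-out fits), and the adjusted p ran from 0.0169 to 0.179 over all alternatives.

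Ppox (ENSMUSG00000062729), of lower abundance, had 18.9, 19.0, 10.8 and 17.6 CPM in control mice and 12.1, 11.5 and 8.96 CPM in LPS-treated mice. Control 3 lay among the LPS-treated mice, so the groups overlapped. The log2 fold change was -0.60 (SE 0.22) and the adjusted p was 0.0585 with edgeR; it passed without control 3 (-0.77, adjusted p = 0.00690), with DESeq2 (0.0494), without a filter (0.0310) and without scaling factors (0.0407), in a range of 0.00690 to 0.224 over the alternatives. In the GENCODE M21 annotation 17.5% of Ppox exon bases lie opposite exons of B4galt3 on the other strand; the libraries kept the strand, but the strand setting of the counting is not given in the sources used here, so reads of both genes may not have been told apart.

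Fech (ENSMUSG00000024588), the final enzyme, fell. Control mice had 79.0, 90.9, 136 and 112 CPM, and LPS-treated mice had 65.7, 67.5 and 73.3 CPM. All LPS-treated mice were below all control mice, the nearest being control 1, and control 3 was the highest, as it was for Alas1. The log2 fold change was -0.60 (SE 0.18, adjusted p = 0.0247 with edgeR; exact permutation p = 0.0571). The call was lost without control 4 or any LPS-treated mouse (log2 fold change -0.72 to -0.45, adjusted p 0.00454 to 0.0978 over the leave-out fits).

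Of the synthesis genes, Alas1 set the summed level. The 6 genes together reached 410, 434, 720 and 442 CPM in control mice and 703, 933 and 944 CPM in LPS-treated mice, so control 3 exceeded LPS 1. Alas1 made up 46.2% of those counts in control 3 and at most 17.0% in the other control mice, against 58.0%, 66.2% and 66.7% in LPS-treated mice. Without Alas1, the order of the groups turned: the other 5 genes summed to 351 to 387 CPM in control mice and to 295 to 316 CPM in LPS-treated mice, with no overlap. These are descriptions without a test.

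Hmox1 (ENSMUSG00000005413) was the gene of the pathway with the largest change. It had 5.80, 7.13, 7.27 and 5.13 CPM in control mice (82 to 119 reads) and 99.5, 54.8 and 52.4 CPM in LPS-treated mice (842 to 2158 reads). Every LPS-treated mouse was far above every control mouse, and LPS 1 was well above LPS 2 and LPS 3. The mean of 68.9 ± 26.5 CPM (SD, n = 3) after LPS was 10.9 times the control mean of 6.33 ± 1.04 CPM (SD, n = 4). In edgeR the log2 fold change of 3.45 (SE 0.24) had an adjusted p of 2.59e-07, which placed it at rank 103 by p among the 13683 genes tested. The exact permutation p was 0.0286. Without LPS 1 the log2 fold change was 3.09, and over all alternatives it ran from 3.09 to 3.61.

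Hmox2, the constitutive heme oxygenase, rose as well, from 31.3, 43.0, 44.4 and 44.3 CPM in control mice to 66.6, 76.9 and 84.2 CPM in LPS-treated mice (log2 fold change 0.90, SE 0.16, adjusted p = 0.000845 with edgeR). Its groups did not overlap. The ratio of Hmox1 to Hmox2 counts, without regard to length, went from 0.185, 0.166, 0.164 and 0.116 in control mice to 1.49, 0.712 and 0.623 in LPS-treated mice, so Hmox1 counts exceeded Hmox2 counts in LPS 1 alone. Of the Hmox2 exon bases, 40.2% lie opposite exons of Cdip1, a gene on the other strand.

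The biliverdin reductases did not follow Hmox1. Blvrb (ENSMUSG00000040466), which also reduces flavins, had 91.1, 89.0, 51.9 and 47.5 CPM in control mice and 38.2, 32.3 and 30.6 CPM in LPS-treated mice. The pattern repeated that of Alad, with control mice 1 and 2 high, control mice 3 and 4 lower and LPS-treated mice lowest without overlap. The log2 fold change was -1.05 (SE 0.23, adjusted p = 0.00520 with edgeR; exact permutation p = 0.0571).

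Blvra (ENSMUSG00000001999), the main biliverdin reductase of adult tissue, had 16.3, 16.7, 10.4 and 10.5 CPM in control mice and 12.6, 13.3 and 10.7 CPM in LPS-treated mice. The LPS-treated mice lay within the range of control mice (log2 fold change -0.14, SE 0.22, adjusted p = 0.683 with edgeR), which does not show that the level was equal. The ratio of Blvrb to Blvra counts ranged from 4.51 to 5.60 in control mice and from 2.43 to 3.03 in LPS-treated mice.

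The ratio of Hmox1 to Alas1 in the same mouse did not separate the groups. The log2 ratio of Hmox1 to Alas1 counts was -3.34, -2.98, -5.52 and -3.88 in control mice and -2.04, -3.49 and -3.59 in LPS-treated mice. LPS 1 had the highest ratio and control 3 the lowest, and LPS 2 and LPS 3 lay within the range of control mice. In LPS-treated mice high Hmox1 thus stood beside high Alas1 counts.

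**Figure D2:**
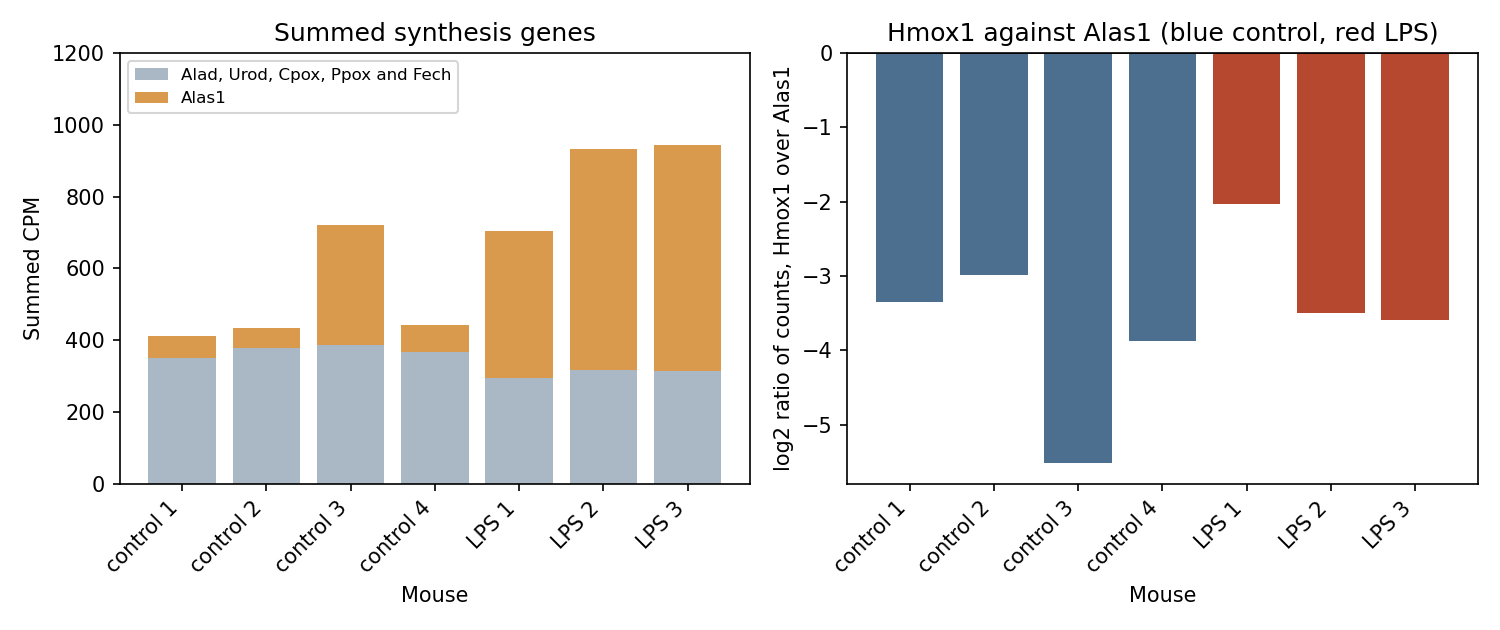
Left, summed CPM of the 6 synthesis genes in each mouse, with Alas1 (orange) on top of the other 5 (grey): the grey part is 351 to 387 CPM in control mice and 295 to 316 CPM in LPS-treated mice. Right, log2 ratio of Hmox1 to Alas1 counts in each mouse, from -5.52 (control 3) to -2.04 (LPS 1), with overlap between the groups.

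The levels of the 9 genes were ordered per kilobase of exon, with lengths from GENCODE M21 that count the exons of every transcript of a gene; the ratios, shares and most abundant markers given elsewhere rest on counts or CPM without regard to length. In control mice Alad had the highest mean (47.0 ± 17.1 CPM per kilobase, SD, n = 4), followed by Blvrb (25.1), Urod (23.1), Alas1 (21.2) and Cpox (15.3), then Fech (7.55), Blvra (5.52), Ppox (3.67) and Hmox1 (3.62). The order of these means was not clear throughout: Alas1 overlapped Alad, Blvrb, Urod, Cpox and Fech between mice and exceeded Alad in control 3 (53.9 against 31.0). Blvrb overlapped Alad, Urod and Cpox, Fech overlapped Blvra, and Ppox overlapped Hmox1. In LPS-treated mice Alas1 (89.4 ± 20.2, SD, n = 3) and Hmox1 (39.3 ± 15.1) came first, without overlap between them, followed by Alad (22.3), Cpox (21.6), Urod (16.6), Blvrb (12.1), Blvra (4.99), Fech (4.97) and Ppox (2.41), where Alad and Cpox, and Blvra and Fech, overlapped. Hmox1 thus had the lowest mean of the 9 genes in control mice and came next after Alas1 in LPS-treated mice.

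Among the other enzymes and mitochondrial partners of synthesis, 17 genes were tested, of which 1 was higher and 4 lower, with a median log2 fold change of -0.21. Alas2, the erythroid aminolevulinate synthase, had 66.4, 62.0, 79.6 and 78.5 CPM in control mice and 23.5, 30.7 and 26.9 CPM in LPS-treated mice. All LPS-treated mice were far below all control mice, and the fall passed the test (log2 fold change -1.41, SE 0.16, adjusted p = 1.82e-05 with edgeR). Of the Alas2 exon bases, 15.5% lie opposite exons of Apex2 and Mir3620. Slc25a37, the mitochondrial iron importer mitoferrin 1, fell alike, from 35.3 to 46.8 CPM in control mice to 12.6 to 17.9 CPM in LPS-treated mice (log2 fold change -1.48, SE 0.17, adjusted p = 2.74e-05). The transporters Abcb6 (-0.93) and Abcb10 (-0.76) were lower and Slc25a39 (0.48) was higher on the log2 scale; the call of Slc25a39 was lost in 6 of 17 alternatives, among them without control 4, LPS 2 or LPS 3 (0.35 to 0.61, adjusted p 0.00874 to 0.149 over all).

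Erythroid markers were read beside these genes. Of 11 markers, 7 were tested, and 2 were lower (Alas2 itself and Hbb-bt), none higher. Epor reached the cutoff of the filter on low counts in control mice alone, so that the filter could have kept it in the lower direction only. Hba-a2 and Klf1 reached it in 3 and 4 control mice, but in only 1 and 2 LPS-treated mice. The summed level of the erythroid markers was 310, 185, 234 and 181 CPM in control mice and 138, 54.6 and 54.8 CPM in LPS-treated mice, Alas2 included. Without Alas2 it was 244, 123, 154 and 103 CPM against 114, 23.8 and 28.0 CPM and the groups overlapped. The most abundant marker over all mice was Hbb-bs, which shares nearly identical reads with other globin genes. Gata1 was at 0 in every mouse, and Klf1 lay between 0.623 and 1.20 CPM. Hba-a1, which did not pass (adjusted p = 0.186), had 40.1 to 92.0 CPM in control mice and 40.0, 5.22 and 6.66 CPM in LPS-treated mice. Of the 3 LPS-treated mice, LPS 1 had the most Hba-a1 and the least Alas2. The part of erythroid cells in the Alas2 result was not tested.

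Genes of heme breakdown, transport and bile pigment handling were mixed: 2 of 15 were higher, 7 lower and 6 not called, with a median log2 fold change of -0.46. Slco1a1, an organic anion uptake carrier, fell most, from 521, 535, 673 and 626 CPM in control mice to 36.4, 27.3 and 26.2 CPM in LPS-treated mice (log2 fold change -4.29, SE 0.20, adjusted p = 5.25e-09 with edgeR). On the canalicular side, Abcc2, the bilirubin conjugate exporter, was at 292, 270, 399 and 311 CPM in control mice and at 179, 179 and 189 CPM in LPS-treated mice, without overlap (log2 fold change -0.80, adjusted p = 0.00215). The exporter Abcc3 (-1.19), the porphyrin exporter Abcg2 (-1.25) and the heme-binding protein Pgrmc1 (-1.01) also fell on the log2 scale. Beside Hmox2, the higher gene was Flvcr2, a heme and choline transporter (log2 fold change 1.45, adjusted p = 0.00601), a call lost without LPS 3 (1.20, with an adjusted p of 0.0555).

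Ugt1a1, the bilirubin-conjugating enzyme, had 32.2, 59.6, 167 and 122 CPM in control mice and 16.9, 30.9 and 28.1 CPM in LPS-treated mice. The groups did not overlap, but control 1 was close to LPS 2 and the control mice spread widely, and the log2 fold change of -1.92 (SE 0.61) did not pass (adjusted p = 0.0648 with edgeR). It passed with DESeq2 (adjusted p = 0.0101), with the replicate block (0.0180) and without control 1 (0.00848); its alternatives ran from 0.00848 to 0.174. Of its exon bases, 58.9% are shared with other Ugt1a genes on the same strand and 41.5% lie opposite exons of Gm20528, so its count is uncertain.

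Of 5 genes of plasma heme and haemoglobin scavenging, 4 were higher, none lower and 1 not called, with a median log2 fold change of 0.96. The list was not tested as a set. Hemopexin (Hpx), which binds free heme in plasma, had 3468, 3358, 3342 and 2595 CPM in control mice and 26587, 35072 and 35978 CPM in LPS-treated mice. Its rise of 10.2-fold (log2 fold change 3.35, SE 0.21, adjusted p = 8.66e-08 with edgeR) was of the same order as that of Hmox1, as was the rise of haptoglobin (Hp), which binds free haemoglobin (10.3-fold, log2 fold change 3.37, adjusted p = 1.79e-07). Ambp (0.96), which yields the heme-binding alpha-1-microglobulin, and the hemopexin receptor Lrp1 (0.46) were higher on the log2 scale, the latter not in 6 of 17 alternatives, among them without control 2, control 4, LPS 2 or LPS 3 (0.34 to 0.52, adjusted p 0.00409 to 0.122 over all). Cd163, the haemoglobin-haptoglobin receptor of macrophages, did not pass (log2 fold change 0.48, adjusted p = 0.241).

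Of 6 genes that handle iron released from heme, 1 was higher and none lower (median log2 fold change -0.11). Ncoa4, the receptor that directs ferritin to lysosomes, rose from 19.9, 17.7, 43.4 and 42.8 CPM in control mice to 92.9, 113 and 119 CPM in LPS-treated mice (log2 fold change 1.81, SE 0.31, adjusted p = 0.00150 with edgeR). The ferritin heavy chain Fth1 (0.46, adjusted p = 0.0561; it passed with DESeq2, without a filter and without control 2, at 0.0146 to 0.173 over its alternatives) and the iron exporter Slc40a1 (-0.66, adjusted p = 0.112) did not pass. Slc40a1 stood at 114 CPM in LPS 1 and at 56.9 and 58.5 CPM in LPS 2 and LPS 3, and it passed without LPS 1 (-1.06, adjusted p = 0.00648) and without a filter on low counts (0.00169), in a range of 0.00169 to 0.325 over its alternatives.

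Regulators known to act on Alas1 were mixed: 3 of 10 were higher and 2 lower, with a median log2 fold change of 0.07. Ppargc1a, a coactivator that induces Alas1 in fasting, had 3.82, 2.71, 5.01 and 3.58 CPM in control mice and 9.49, 19.8 and 18.9 CPM in LPS-treated mice. The groups did not overlap. LPS 1 was the lowest of its group and control 3 the highest of its own, as for Alas1 and also for Hnf4a. Control 3 did not stand apart in Ppargc1a as it did in Alas1. The rise passed the test (log2 fold change 2.08, SE 0.28, adjusted p = 0.000113 with edgeR). Its partners Foxo1 (0.99) and Hnf4a (0.74) were higher on the log2 scale, Hnf4a not without LPS 2 (0.66, adjusted p = 0.0513, from 0.000116 over its alternatives). The xenobiotic receptor Nr1i3 (CAR; log2 fold change -0.85, adjusted p = 0.000632) and the clock repressor Nr1d1 (-1.71, adjusted p = 0.00283) were lower. The time of day and the feeding of the mice at killing are not given in the labels. Whether any of these genes bears on Alas1 here was not tested.

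Of 9 regulators of Hmox1, 1 was higher, 1 lower and 7 not called, with a median log2 fold change of -0.07. Nfe2l2, which encodes Nrf2, an activator of Hmox1 whose activity is set largely by protein stability, was at 77.3, 69.9, 61.5 and 73.6 CPM in control mice and at 50.2, 54.4 and 54.9 CPM in LPS-treated mice. The groups did not overlap, and the transcript was lower (log2 fold change -0.41, SE 0.14, adjusted p = 0.0405 with edgeR), a call kept in 8 of 17 alternatives (adjusted p from 0.0165 to 0.126) and lost, among others, without control 1, 2 or 4 or any LPS-treated mouse. Bach1, the heme-sensing repressor of Hmox1, overlapped between groups (log2 fold change -0.32, adjusted p = 0.241). Hif1a was higher (0.84, adjusted p = 0.0108).

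Of 18 genes of heme-holding enzymes, 10 were lower and 3 higher, with a median log2 fold change of -0.84. Cyp2e1, the most abundant of them, overlapped between groups and was not called (mean of 6672 CPM in control mice and 5686 CPM in LPS-treated mice). Its log2 fold change was -0.23 (adjusted p = 0.44 with edgeR). Cyp1a2 had 909, 778, 774 and 683 CPM in control mice and 31.8, 13.4 and 15.6 CPM in LPS-treated mice (log2 fold change -5.27, SE 0.31, adjusted p = 1.10e-07 with edgeR). The drug-metabolizing Cyp3a11 (-4.71) and Cyp2c29 (-4.38) and the electron carrier cytochrome b5 (Cyb5a, -1.59) fell too, each without overlap between groups. Higher were Cyp2b10 (3.07), Cyp4a14 (2.70) and the heme-dependent tryptophan dioxygenase Tdo2 (1.30). The P450 reductase Por, a flavoprotein without heme that also passes electrons to heme oxygenase and stood in the same list, was higher too (1.99); with it the list had a median of -0.71. The Cyp4a14 call was lost in 9 of its 17 alternatives, among them the fits without control 3, control 4 or any LPS-treated mouse (adjusted p from 2.73e-07 to 0.165).

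**Figure D3:**
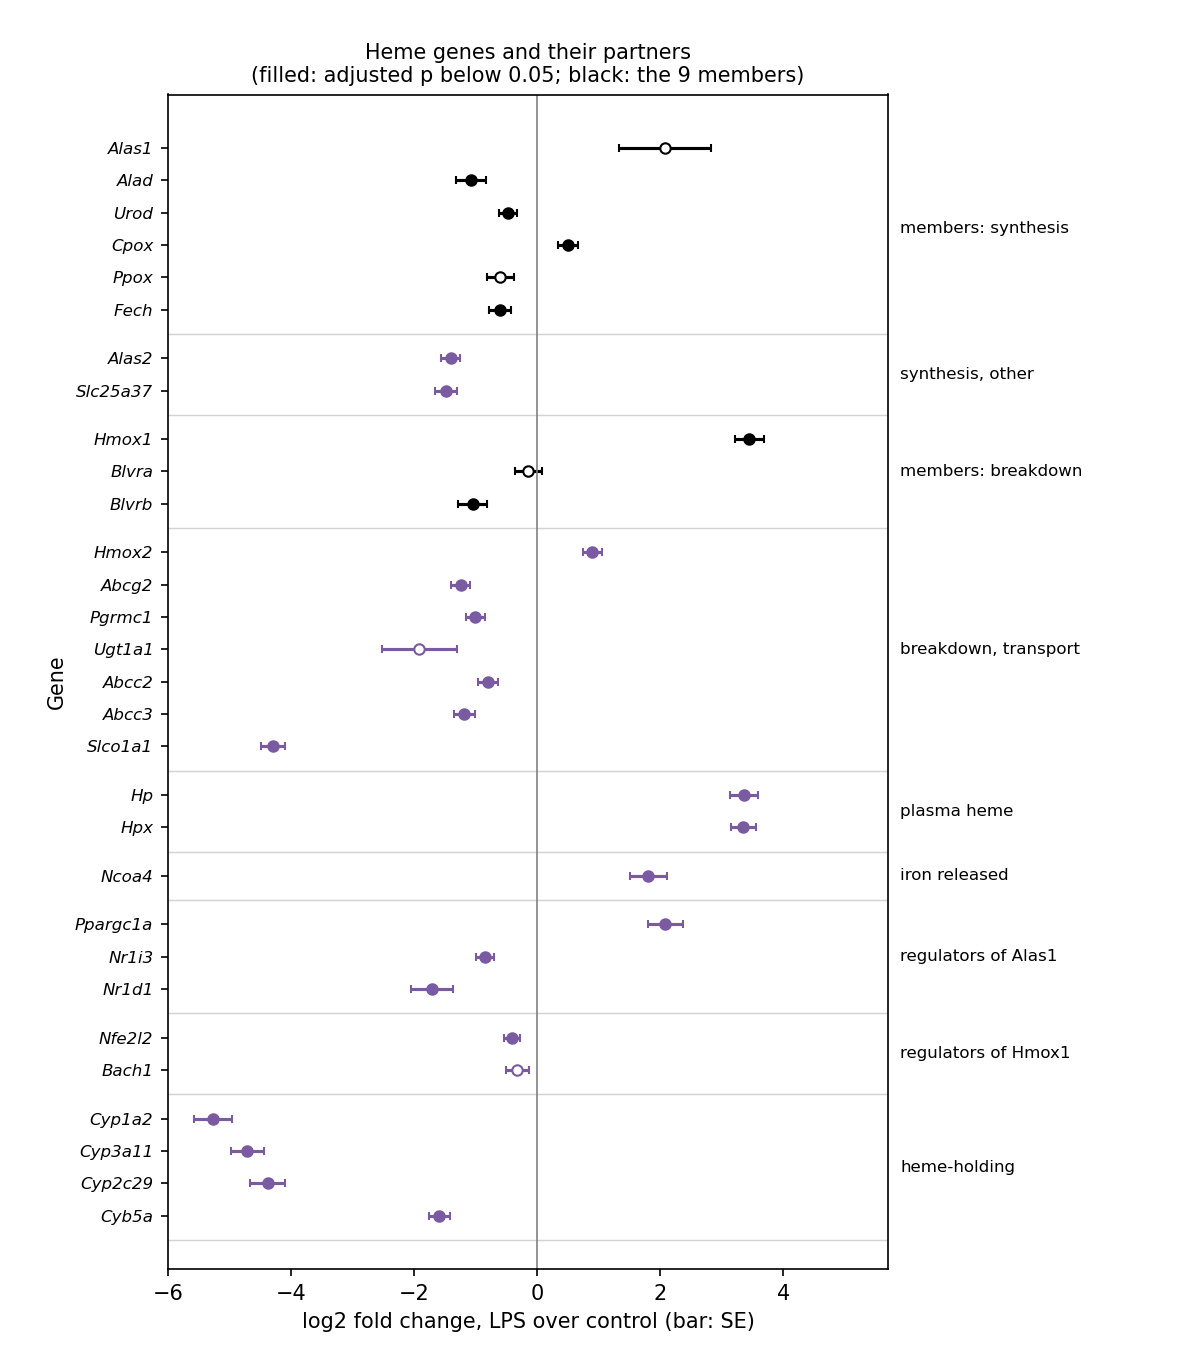
Log2 fold change of LPS over control (points) with its standard error (bars) for the 9 genes (black) and the partner genes named by rule (purple), grouped by role; filled points have an adjusted p below 0.05 with edgeR. Hmox1 (3.45) stands near Hp (3.37) and Hpx (3.35), and Alas1 (2.08) is open with an SE of 0.75.

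Of 12 hepatocyte markers, 3 were higher and 3 lower, with a median log2 fold change of 0.07. Their summed level was 72533, 75259, 98629 and 85648 CPM in control mice and 51195, 56350 and 56214 CPM in LPS-treated mice, most abundantly Alb (log2 fold change -0.93), while Cps1 (0.62) and Tat (1.40) were higher. The summed level was lower in each LPS-treated mouse than in any control mouse. The part of hepatocytes in the results for Alad, Urod, Fech, Blvrb, Slco1a1 and Cyp1a2 was not tested.

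Markers of neutrophils and monocytes were read beside Hmox1. Of 11 neutrophil markers, 7 were tested and were higher. Of these, Ngp, Retnlg and Mmp8 reached the cutoff of the filter on low counts in LPS-treated mice alone. The filter could thus have kept these genes in this direction only. S100a8 and Cxcr2 reached the cutoff in 3 LPS-treated mice each, but in only 2 and 1 control mice. The 11 neutrophil markers summed to 5.24, 4.54, 2.02 and 2.85 CPM in control mice and to 214, 156 and 158 CPM in LPS-treated mice, most abundantly S100a9. The granule genes Mpo (at most 0.0644 CPM), Elane (at most 0.505) and Camp (at most 0.323) and the surface gene Ly6g (at most 0.323) were at or near 0. Of 5 monocyte markers, 4 were higher (sums of 13.4, 10.6, 6.72 and 8.23 CPM in control mice and 78.5, 64.6 and 74.8 CPM in LPS-treated mice, most abundantly Plac8). Of these, Chil3 and F13a1 reached the filter's cutoff in LPS-treated mice alone, and Ly6c2 in 3 LPS-treated mice and 1 control mouse. Ccr2 was not called.

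The summed macrophage markers were highest in LPS 1, as Hmox1 was. Of 13, 6 were higher and 1 lower, and they summed to 185, 252, 241 and 155 CPM in control mice and to 836, 237 and 247 CPM in LPS-treated mice. Marco, the most abundant over all mice pooled, had 410 CPM in LPS 1 and 66.5 and 65.6 CPM in LPS 2 and LPS 3. Lyz2 was above it in LPS 2 (69.3 CPM) and LPS 3 (74.1 CPM). In control mice Marco was low (mean of 3.69 CPM, against 54.4 CPM for the Kupffer cell marker Clec4f). Clec4f fell (log2 fold change -2.13, adjusted p = 0.0230 with edgeR). Timd4, which reached the filter's cutoff in 4 control mice but in only 1 LPS-treated mouse, was at 12.9, 0.0644 and 0.623 CPM in the LPS-treated mice. The part of macrophages, neutrophils and monocytes in the Hmox1 result was not tested.

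The other markers moved less evenly. Of 7 endothelial markers 2 were higher and 2 lower, of which Clec4g reached the filter's cutoff in 4 control mice but in only 2 LPS-treated mice. The endothelial markers summed to 122, 152, 92.0 and 125 CPM in control mice and 149, 89.0 and 87.3 CPM in LPS-treated mice. Stab2 was the most abundant over all mice pooled, but not by the mean of either group. Clec4g had 25.4 CPM against 25.3 for Stab2 in control mice, and Pecam1 26.3 against 17.3 in LPS-treated mice. Of 8 stellate cell markers 2 were lower (480, 328, 207 and 322 CPM against 304, 262 and 248 CPM, most abundantly Dcn), and of 5 cholangiocyte markers 1 was higher (262, 108, 72.2 and 116 CPM against 137, 165 and 158 CPM, most abundantly Spp1). Of 7 lymphocyte markers 3 were tested, all of which passed the filter through control mice alone, and Cd79b was called lower. The lymphocyte markers summed to 3.10 to 5.43 CPM in control mice and 0.902 to 2.55 CPM in LPS-treated mice. Cd79a was the most abundant over all mice pooled, but not by the mean of either group. Cd79b had 0.978 CPM against 0.963 for Cd79a in control mice, and Nkg7 0.531 against 0.232 in LPS-treated mice.

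The share of counts on mitochondrially encoded genes also differed between mice, and its order was close to that of Alad and Blvrb. It was 23.7%, 14.6%, 7.48% and 8.96% in control mice and 6.45%, 3.83% and 3.94% in LPS-treated mice. With those genes left out before scaling, the log2 fold change was -1.09 for Alad and -1.06 for Blvrb. That fit changes only how the libraries are filtered and scaled. Whether the share bears on the differences in Alad and Blvrb was not tested.

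Genes whose pattern over the 7 mice was most like that of Hmox1 or Alas1 were sought by the root mean square difference of log2 CPM centred on each gene's mean; 7071 genes averaging 10 CPM or more were compared. Nearest to Hmox1 were Saa4 (0.33), Fabp4 (0.33), Pkm (0.34), Pla2g7 (0.34) and Plek (0.36). They span a serum amyloid A protein (Saa4), a fatty acid carrier (Fabp4) and a glycolytic enzyme (Pkm). The others are a secreted phospholipase (Pla2g7) and a leukocyte signalling protein (Plek). Nearest to Alas1 were Fga (0.53), Cyp4a31 (0.58), Arhgef26 (0.58), Acmsd (0.60) and Adora1 (0.60), less close. Alad and Blvrb were each at rank 5 of the other, at a difference of 0.12. Nearer to Alad were Sod1 (0.08), Uqcr11 (0.09), Nlrp6 (0.10) and Tmem205 (0.11). Nearer to Blvrb were Als2cl (0.07), Uqcr11 (0.07), Echdc2 (0.08) and Sod1 (0.10). Over 6559 genes, control 1 and control 2 (SD of log2 ratios 0.35) and control 3 and control 4 (0.34) were closer than control mice across these pairs (0.40 to 0.55).

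Promoter sequence came from a table of RefSeq transcript starts (GRCm38.p6), in which 7 of the 9 genes were matched with 10 starts; Hmox1 and Fech had no entry in that table. From 250 bases before to 50 after each start, 300 bases in all, both strands were searched for 6 motifs. CACGTG, the E-box, was found at 3 of the 10 starts, in 2 of the 7 genes (Alad and Urod), and in 7.15% of 32851 promoters of the same length. TGANNNNGC, the core of the antioxidant response element, was found at 4 starts, in 3 genes (Cpox, Blvra and Blvrb), and in 41.3% of all promoters. An NF-kappa B-like motif was found at 8 starts (50.8% of all promoters), CCAAT at 5 (37.4%), the GC box GGGCGG at 6 (35.7%) and TATAAA at 0 (13.6%). A match describes the letters alone and shows no binding.

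The bases before the start are printed for Alad, Blvrb and Urod. Levels of Alad and Blvrb moved together over the mice, as those of other genes did, and Urod also has an E-box. Alad and Blvrb have 2 transcript starts each, of which the first listed is shown. They read 5′ to 3′ on the strand of the gene, with CACGTG in capitals for Alad and Urod and, for Blvrb, TGANNNNGC on the opposite strand in capitals. Alad lies at chr4:62520064-62520313 and Urod at chr4:116994414-116994663, both on the minus strand, and Blvrb at chr7:27447728-27447977 on the plus strand. The first motif base is at -105 for Alad, -49 for Urod and -69 for Blvrb relative to the start; at the other start it is at -28 for Alad, and Blvrb has matches at -196 and -19.
Alad: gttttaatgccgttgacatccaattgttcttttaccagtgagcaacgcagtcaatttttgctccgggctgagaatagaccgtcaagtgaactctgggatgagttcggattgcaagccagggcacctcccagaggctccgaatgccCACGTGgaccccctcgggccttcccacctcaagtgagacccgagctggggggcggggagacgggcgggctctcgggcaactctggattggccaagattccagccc
Urod: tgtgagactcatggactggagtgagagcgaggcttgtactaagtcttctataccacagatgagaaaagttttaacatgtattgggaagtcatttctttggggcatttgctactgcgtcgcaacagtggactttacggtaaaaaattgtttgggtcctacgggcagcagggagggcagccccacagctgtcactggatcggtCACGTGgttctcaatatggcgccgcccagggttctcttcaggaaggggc
Blvrb: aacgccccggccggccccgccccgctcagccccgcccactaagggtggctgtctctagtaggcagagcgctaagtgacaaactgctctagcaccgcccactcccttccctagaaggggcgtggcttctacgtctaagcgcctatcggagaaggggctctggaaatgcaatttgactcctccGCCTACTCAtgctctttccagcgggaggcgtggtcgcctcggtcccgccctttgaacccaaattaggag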

How the data were processed

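The authors deposited raw read counts per gene for each mouse, not normalized. The submitters' processing notes name cutadapt 1.9.1, HISAT2 2.2.1, HTSeq 0.6.1, DESeq2 1.34.0 and the genome build GRCm39; the gene annotation and the strand setting are not given in the sources used here. Low counts were removed with filterByExpr (edgeR 4.0.16, R 4.3.3), libraries were scaled by TMM, and the groups were compared by edgeR's robust quasi-likelihood test, group being the model's sole term; p was adjusted over 13683 genes by Benjamini-Hochberg. Calls required an adjusted p below 0.05. CPM use TMM-scaled library sizes. Exon lengths came from GENCODE M21, which holds 52073 of the 56691 gene identifiers.

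A floor of 3 counts equalled 0.138 to 0.212 CPM across the mice and covers counting error only. Promoters came from RefSeq (GRCm38.p6). Exact permutation tests used log2 CPM. The members and gene lists were chosen with earlier results of these data known. Named genes were the 9 members, in each pathway list the called genes with an absolute log2 fold change above 1 (at most the 4 with the smallest p), Alas2, Hmox2, Hp, Hpx, Nfe2l2, Bach1, Ppargc1a, Nr1i3, Ugt1a1 and Abcc2, and the 5 nearest profiles of Alas1 and Hmox1; other genes were named after their values were seen. Marker lists covered hepatocytes, erythroid cells, macrophages, monocytes, neutrophils, endothelium, stellate cells, cholangiocytes and lymphocytes. Alternatives were other filters, scalings and call rules, DESeq2 1.42.0, the replicate block, leaving out each mouse, and summing LPS 2 and LPS 3.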

Additional observations from a re-analysis of the deposited data

Results flagged for a closer look

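Among the 4 control mice, control 3 stood apart in Alas1. Its gap to the nearest control mouse was 0.932 of the group's whole range in Alas1 CPM (332.6 against 56.4 to 75.3 CPM), 0.895 in the summed CPM of the 6 synthesis genes and 0.879 in the share of those counts held by Alas1. All 3 values rest on the same Alas1 count. Of the 17 measures examined in control mice, these 3 passed the critical value for 4 samples, which chance passes in about 1 in 20 groups.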

How the results depend on the processing

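All 153 values of the 9 genes under 17 alternatives kept their direction, and 129 also kept their side of the threshold; of 850 values of 50 partner genes, 850 kept their direction and 807 both. Hmox1, Alad and Blvrb passed in every fit. Leaving out a mouse gave log2 fold changes from 1.81 to 3.11 for Alas1, from -0.56 to -0.38 for Urod, from 0.40 to 0.59 for Cpox, from -0.77 to -0.48 for Ppox and from -0.72 to -0.45 for Fech. With LPS 2 and LPS 3 summed, the closest pair of mice (SD of log2 ratios 0.21), Urod (-0.51), Cpox (0.49) and Fech (-0.61) no longer passed, leaving 1 higher and 2 lower; fewer samples were then compared. With DESeq2, Alas1 (2.08) and Ppox (-0.60) passed; without a filter Ppox passed (-0.59). Without scaling factors the median of all genes moved by -0.12 on the log2 scale, Cpox (0.37) no longer passed, leaving 1 gene higher, Ppox (-0.71) did, and 39.7% of calls were higher, against 51.1%; the changes of the genes are read relative to that shift.

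With an absolute log2 fold change above 1, 1061 genes were higher and 973 lower, 1 and 2 of them among the 9; at an adjusted p below 0.01, 1110 and 1010, again 1 and 2. Leaving out a mouse gave 1302 to 1925 higher and 1156 to 1872 lower genes, and 1 to 3 higher and 2 to 5 lower among the 9.

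Replicate numbers are shared by different animals, and their deviations from the group means had correlations of 0.18, -0.06 and 0.07, so the numbers were not taken to pair mice. With the replicate block, 1717 genes were higher and 1657 lower, and Alas1 passed (log2 fold change 2.40, adjusted p = 0.0489); no other call among the 9 changed. LPS 1 correlated best with control 1, LPS 2 with control 3 and LPS 3 with control 4. Where no cause is given, the cause of a change was not tested.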

Other observations

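Cyp7a1, the rate-limiting heme enzyme of bile acid synthesis, was chosen after its values were seen. It had 54.0, 55.0, 27.6 and 65.9 CPM in control mice and 24.9, 5.41 and 4.05 CPM in LPS-treated mice. The groups did not overlap, yet the log2 fold change of -2.12 (SE 0.72) did not pass edgeR's test (adjusted p = 0.0816). It passed without LPS 1 (-3.42, adjusted p = 3.03e-05), with DESeq2 (0.0146) and with the replicate block (0.0206), and the adjusted p ran from 3.03e-05 to 0.189 over its alternatives. Catalase (Cat), a heme enzyme of peroxisomes, was even within groups, at 2723 to 3093 CPM in control mice and 1151 to 1349 CPM in LPS-treated mice (log2 fold change -1.23, adjusted p = 7.66e-05).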
